A study of Drosophila melanogaster with 6 samples.

Results

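Dopamine, serotonin and octopamine act on the fly brain through G protein-coupled receptors, and 10 such receptor genes were followed here: Dop1R1, Dop1R2, Dop2R, DopEcR, 5-HT1A, 5-HT1B, 5-HT2A, 5-HT2B, 5-HT7 and Oamb. They were found by matching the FlyBase identifiers of the deposited expression table to gene symbols, a step that used none of their values. Earlier results of these data were known when the receptors were chosen. Of the 10 genes, 9 were matched, among 15886 rows in all. The identifier that the reference gives for Dop1R2 matched no row, so Dop1R2, a dopamine receptor of the mushroom body, was not analysed here. Head transcripts of Drosophila melanogaster were sequenced in 3 libraries of TubGS>RNAi-GLAD flies (RNAi-GLAD) and 3 libraries of TubGS>RNAi-GFP flies (RNAi-Ctrl), at day 7 after induction. All flies of both groups carried the drug-inducible TubGS driver and had RU486 in their food, so that the groups differed in the RNA interference construct: one named GLAD, and one against GFP, a jellyfish protein that flies do not make. TubGS is a GeneSwitch form of the tubulin driver and is active throughout the body, not in neurons alone. Each library pooled material of 100 brains by the extraction protocol, although the tissue label says head; the labels give no fly age or sex, and the identity of the GLAD target is absent from the sources used here.

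Receptors of this family sense amines released by small groups of neurons that project widely, and they set arousal, sleep, feeding, locomotion and learning. Dop1R1 couples to stimulatory G proteins and raises cyclic AMP, and is required in the mushroom body, the fly's olfactory memory centre, for associative learning. Dop2R is the inhibitory dopamine receptor, also found on dopamine neurons themselves. DopEcR responds both to dopamine and to the steroid hormone ecdysone. Of the serotonin receptors, 5-HT1A and 5-HT1B lower cyclic AMP, 5-HT7 raises it, and 5-HT2A and 5-HT2B signal through phospholipase C and calcium. Oamb is an octopamine receptor that raises intracellular calcium.

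Markers of neurons, glia and photoreceptors were all present. All 15 pan-neuronal markers found in the table were above 0 in every library, with means of 27.6 to 562 FPKM (fragment counts scaled by transcript length and by sequencing depth), as were 11 glial markers, with means of 14.4 to 742 FPKM. The rhodopsin gene ninaE, which is made in photoreceptors, averaged 25915 FPKM, and all 12 photoreceptor markers were at 299 FPKM or more on average. Steps between low values gave library totals of 22.1 to 29.5 M fragments. The libraries numbered 3 stood with the other group for many genes but not for all. For 75.1% of genes tested, RNAi-GLAD 3 and RNAi-Ctrl 3 differed in the opposite direction from the other 4 libraries. An extreme case was lncRNA:CR40469, at 4.20, 4.77 and 1718 FPKM in RNAi-GLAD 1, 2 and 3, against 1935, 2198 and 5.86 FPKM in RNAi-Ctrl 1, 2 and 3. Each comparison of the receptors is therefore given for all 6 libraries as labelled and for the 4 libraries numbered 1 and 2. The 4 libraries were chosen with these values known, so their p-values may be too small and their calls too many. The labels do not tell whether replicates are separate pools of flies, and the spread that p-values rest on may be technical.

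All 9 receptors were expressed in every library, with mean levels from 3.96 to 84.5 FPKM. DopEcR was by far the most abundant at 84.5 ± 6.30 FPKM (SD over 6 libraries), a level above 93.4% of the rows of the table. It was followed by 5-HT2A at 22.0 ± 1.78 FPKM and Oamb at 14.3 ± 0.777 FPKM. Dop2R at 11.9 ± 1.72 FPKM, Dop1R1 at 10.9 ± 1.10 FPKM and 5-HT1A at 10.2 ± 0.378 FPKM lay close together. The lowest were 5-HT1B at 6.56 ± 0.367 FPKM, 5-HT7 at 4.80 ± 0.480 FPKM and 5-HT2B at 3.96 ± 0.282 FPKM, which still exceeded 50.2% of the rows. FPKM is a level per length, which allows genes to be set side by side, but the sources used here do not give the lengths that the authors divided by.

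Neighbours in this order were compared within each library. Of the 8 neighbouring pairs, 6 kept their order in all 6 libraries: DopEcR over 5-HT2A (3.84-fold by the ratio of mean FPKM), 5-HT2A over Oamb (1.54-fold), Oamb over Dop2R (1.21-fold), 5-HT1A over 5-HT1B (1.56-fold), 5-HT1B over 5-HT7 (1.37-fold) and 5-HT7 over 5-HT2B (1.21-fold). Dop2R was above Dop1R1 in 5 of 6 libraries (1.09-fold), and Dop1R1 was above 5-HT1A in 4 of 6 (1.06-fold), so these neighbours did not differ beyond their spread. The pairs were taken from the same means, and an error in a gene's length would recur in every library, so a constant order is a description of these FPKM values and does not settle which gene of a close pair has more transcripts.

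**Figure D1:**
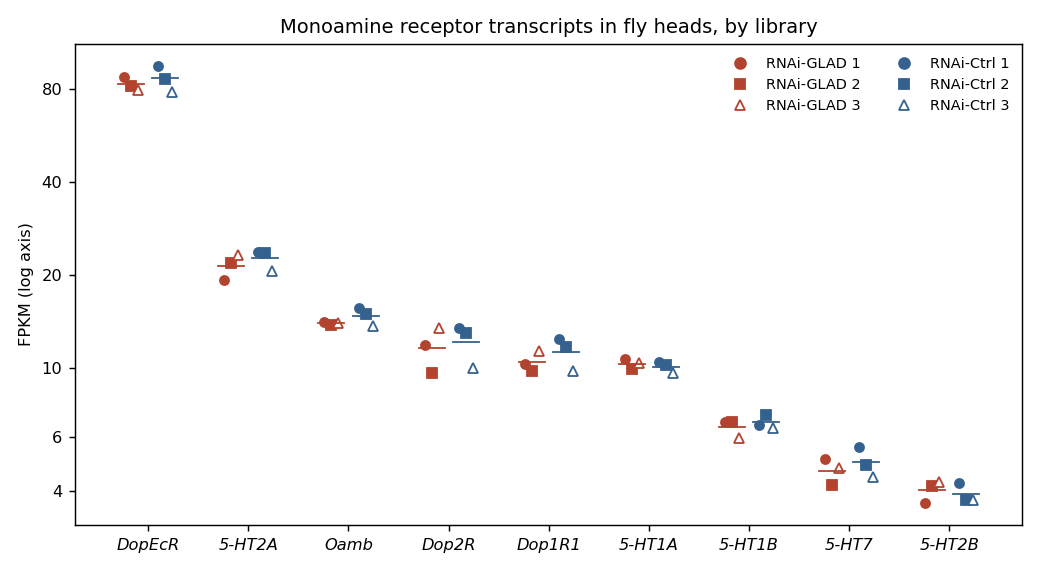
FPKM of the 9 receptors in each library on a log axis, RNAi-GLAD left of RNAi-Ctrl for each gene, with a bar at the mean of each group and open triangles for the libraries numbered 3. The levels run from 84.5 FPKM for DopEcR to 3.96 FPKM for 5-HT2B, and the labelled groups overlap for every gene.

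DopEcR alone accounted for about as much of the receptor signal as the other 8 genes together. The summed FPKM of the 9 genes was 169, 161 and 166 in RNAi-GLAD 1, 2 and 3, against 187, 175 and 156 in RNAi-Ctrl 1, 2 and 3. DopEcR supplied 49.9% ± 2.15 of this sum in RNAi-GLAD and 50.0% ± 0.789 in RNAi-Ctrl (SD, n = 3 each). The 5 serotonin receptors together supplied 28.3% ± 1.30 in RNAi-GLAD and 28.0% ± 0.872 in RNAi-Ctrl. Oamb supplied 8.41% ± 0.0957 in RNAi-GLAD and 8.55% ± 0.191 in RNAi-Ctrl, the smallest of these shares and the one with the smallest SD. Within the pairs of related receptors, 5-HT2A exceeded 5-HT2B by 5.27 to 6.31 times in all 6 libraries. The ratio of 5-HT1A to 5-HT1B was 1.45 to 1.74. Dop2R over Dop1R1 was 0.982 to 1.19.

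All 9 are protein-coding genes with places in the annotation. In the Ensembl release 115 annotation of BDGP6, 5-HT2A (chromosome 3R, 4612870 to 4633304, plus strand), 5-HT2B (3R, 8578205 to 8629996, plus), Dop1R1 (3R, 14165379 to 14214810, minus), Oamb (3R, 20689018 to 20714577, minus) and 5-HT7 (3R, 30968236 to 31016875, minus) lie on the right arm of chromosome 3. DopEcR (3L, 4367649 to 4380387, minus) lies on the left arm and Dop2R (X, 20004680 to 20062706, minus) on the X chromosome. 5-HT1B (2R, 19022325 to 19032642, minus) and 5-HT1A (2R, 19067155 to 19121958, plus) are near each other on chromosome arm 2R, on opposite strands. The genes span 10318 bp (5-HT1B) to 58027 bp (Dop2R) and have 2 to 6 annotated transcripts. None of the 9 shared an exonic base with another annotated gene. CG43351 lies within the span of 5-HT1B on the opposite strand, and at 152 FPKM on average its level was well above that of 5-HT1B.

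With these exon lengths and the library totals, the values correspond to about 423 to 10112 fragments per gene and library, from 5-HT7 in RNAi-GLAD 2 to DopEcR in RNAi-Ctrl 1. These fragment numbers are approximate, since the authors' lengths are not known and the library totals are inferred from the steps of low values. The observed coefficient of variation over the 6 libraries was 7.45% for DopEcR and 14.5% for Dop2R, the highest of the 9. It was lowest for 5-HT1A, at 3.70%. The median of the 9 receptors was 7.45%, against 8.88% over the 9631 genes tested.

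The comparison of the groups asks whether receptor transcripts differ in heads that express the GLAD construct. As labelled, no receptor did so beyond the spread between libraries. Dop1R1 was at 10.3, 9.78 and 11.3 FPKM in RNAi-GLAD 1, 2 and 3, against 12.4, 11.7 and 9.75 FPKM in RNAi-Ctrl 1, 2 and 3. RNAi-Ctrl 1 and 2 were above all RNAi-GLAD libraries, and RNAi-Ctrl 3 below them, so the groups overlapped. Its log2 fold change (RNAi-GLAD minus RNAi-Ctrl, in log2(FPKM + 1), as are all that follow) was -0.10 ± 0.10 (SE, limma adjusted p = 0.999).

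Dop2R varied most of the 9 genes. It was at 11.9, 9.60 and 13.4 FPKM in RNAi-GLAD 1, 2 and 3, against 13.5, 12.9 and 10.01 FPKM in RNAi-Ctrl 1, 2 and 3. The lowest values were those of RNAi-GLAD 2 and RNAi-Ctrl 3 and the highest those of RNAi-Ctrl 1 and RNAi-GLAD 3, so the groups overlapped. The fold change was -0.06 ± 0.15, with a 95% confidence interval of -0.43 to 0.32, the widest of the 9. DopEcR was at 87.5, 81.5 and 79.1 FPKM in RNAi-GLAD 1, 2 and 3, against 94.8, 86.1 and 78.0 FPKM in RNAi-Ctrl 1, 2 and 3. The RNAi-GLAD values lay inside the range of the RNAi-Ctrl values, and the fold change was -0.06 ± 0.09.

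Among the serotonin receptors, 5-HT2A was at 19.3, 21.8 and 23.2 FPKM in RNAi-GLAD 1, 2 and 3, against 23.6, 23.6 and 20.6 FPKM in RNAi-Ctrl 1, 2 and 3. RNAi-GLAD 3 stood with RNAi-Ctrl 1 and 2, RNAi-Ctrl 3 stood below RNAi-GLAD 2, and the fold change was -0.07 ± 0.09. 5-HT1A hardly varied, at 10.7, 9.94 and 10.4 FPKM in RNAi-GLAD 1, 2 and 3, against 10.5, 10.2 and 9.64 FPKM in RNAi-Ctrl 1, 2 and 3. Its fold change was 0.03 ± 0.06, with a confidence interval of -0.11 to 0.17, the narrowest of the 9. 5-HT1B, its neighbour on the chromosome arm, was at 6.71, 6.69 and 5.96 FPKM in RNAi-GLAD 1, 2 and 3, against 6.55, 7.06 and 6.41 FPKM in RNAi-Ctrl 1, 2 and 3. Its lowest library was RNAi-GLAD 3, and its fold change was -0.04 ± 0.07.

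The lowest pair of the family also showed no separation of the groups. 5-HT7 was at 5.06, 4.18 and 4.73 FPKM in RNAi-GLAD 1, 2 and 3, against 5.55, 4.86 and 4.43 FPKM in RNAi-Ctrl 1, 2 and 3, a fold change of -0.07 ± 0.10. 5-HT2B was at 3.66, 4.14 and 4.28 FPKM in RNAi-GLAD 1, 2 and 3, against 4.23, 3.73 and 3.74 FPKM in RNAi-Ctrl 1, 2 and 3, a fold change of 0.04 ± 0.09. The octopamine receptor Oamb was at 14.1, 13.7 and 13.9 FPKM in RNAi-GLAD 1, 2 and 3, against 15.6, 14.9 and 13.7 FPKM in RNAi-Ctrl 1, 2 and 3. Its RNAi-GLAD libraries lay close together (SD 0.175 FPKM), and RNAi-Ctrl 3 stood just below them. The fold change of Oamb was -0.07 ± 0.06.

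Over all 6 libraries, limma called 0 of the 9 receptors (adjusted p = 0.999 for each), and 0 of 9631 genes tested (0%). At an unadjusted p under 0.05 there were 0 receptors and 112 genes (1.16%). The labelled groups overlapped for all 9 receptors, whereas 1.17% of the genes tested lay lower in RNAi-GLAD without overlap and 2.82% higher. Fold changes were negative for 7 of 9 receptors with a median of -0.06, and for 44.3% of all genes, with a median of 0.01; 8 receptors were negative after quantile normalization and 6 relative to the pan-neuronal markers. This count rested on single libraries: it was 4 of 9 without RNAi-Ctrl 1 (median 0.001), 6 without RNAi-GLAD 2 and 8 without RNAi-Ctrl 3 (median -0.13). With libraries weighted by their agreement within groups (limma's array weights), 7 of 9 were negative, 2270 genes and 1 receptor (Dop1R1, -0.18 ± 0.07) had an unadjusted p under 0.05, and 0 were called. The 95% confidence intervals of all 9 lay between -0.43 and 0.32, the bounds of Dop2R, and the narrowest was that of 5-HT1A (-0.11 to 0.17). For each receptor, a change within its own interval could not be told from none.

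In the 4 libraries numbered 1 and 2 all 9 receptors had negative fold changes, but none passed the test. Dop1R1 averaged 10.02 ± 0.340 FPKM in RNAi-GLAD 1 and 2 and 12.05 ± 0.546 FPKM in RNAi-Ctrl 1 and 2 (SD, n = 2 each), a fold change of -0.24 ± 0.06 that had the smallest p of the 9 (limma adjusted p = 0.107, interval -0.41 to -0.08). Dop2R averaged 10.7 ± 1.61 FPKM in RNAi-GLAD 1 and 2 and 13.2 ± 0.375 FPKM in RNAi-Ctrl 1 and 2, a fold change of -0.28 ± 0.11 (adjusted p = 0.219). 5-HT2A averaged 20.6 ± 1.79 FPKM in RNAi-GLAD 1 and 2 and 23.6 ± 0.0419 FPKM in RNAi-Ctrl 1 and 2, a fold change of -0.19 ± 0.07 (adjusted p = 0.209). Oamb averaged 13.9 ± 0.247 FPKM in RNAi-GLAD 1 and 2 and 15.3 ± 0.497 FPKM in RNAi-Ctrl 1 and 2, a fold change of -0.13 ± 0.05 (adjusted p = 0.234). For these 4 genes both RNAi-GLAD libraries lay below both RNAi-Ctrl libraries. The groups overlapped for the other 5, with fold changes of -0.14 ± 0.12 for 5-HT7, -0.10 ± 0.07 for DopEcR, -0.02 ± 0.11 for 5-HT2B, -0.02 ± 0.07 for 5-HT1B and -0.004 ± 0.060 for 5-HT1A.

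The 4 of 9 receptors whose groups did not overlap on the lower side compare with 24.0% of the 9661 genes tested in these libraries. Negative fold changes were found for 45.3% of all genes (median 0.02; median of the receptors -0.13). At an unadjusted p under 0.05 there was 1 receptor, Dop1R1, beside 24.9% of all genes. The receptor count varied with scaling: it was 4 after quantile normalization, beside 2417 genes in all. It was 3 with each library scaled by its median ratio over genes (2302 genes), and 0 relative to the pan-neuronal markers (3196 genes). limma called 0 receptors, where it called 527 genes (5.45%). The total was 1 gene without RNAi-Ctrl 1, 1 without RNAi-Ctrl 2, 329 when RNAi-GLAD 1 was omitted and 149 when RNAi-GLAD 2 was, and no receptor was among them.

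**Figure D2:**
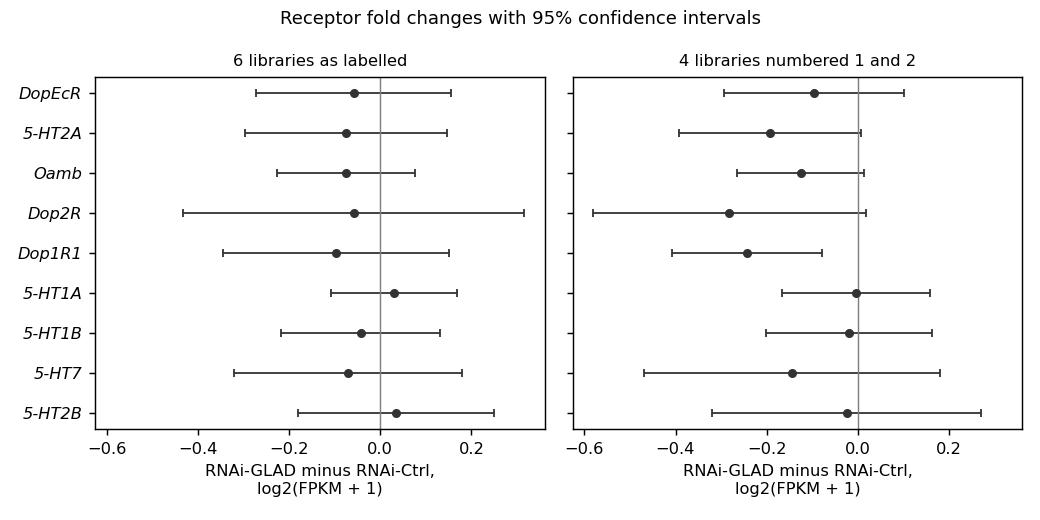
Log2 fold change of each receptor (RNAi-GLAD minus RNAi-Ctrl, log2(FPKM + 1)) with its 95% confidence interval from limma, for all 6 libraries as labelled and for the 4 libraries numbered 1 and 2. Every interval includes 0 except that of Dop1R1 in the 4 libraries (-0.41 to -0.08), whose adjusted p was 0.107.

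The libraries numbered 3 mostly went the other way, by small amounts for several receptors. Of the 9 receptors, 8 had the opposite sign between RNAi-GLAD 3 and RNAi-Ctrl 3 from that in the other 4 libraries, as had 75.1% of all genes tested. Among the 527 genes called in the 4 libraries, 522 (99.1%) had the opposite sign. Dop2R was 0.39 higher in RNAi-GLAD 3 than in RNAi-Ctrl 3 on the log2 scale, Dop1R1 0.20 higher and 5-HT2A 0.16 higher. The difference was 0.15 for 5-HT2B, 0.10 for 5-HT1A, 0.08 for 5-HT7, 0.03 for Oamb and 0.02 for DopEcR. For 5-HT1A and 5-HT2B the fold changes in the 4 libraries were themselves near 0 (-0.004 and -0.02). The exception was 5-HT1B, with a log2 difference of -0.09. The directions given for the 4 libraries were thus not repeated for 8 of the 9 receptors, and they also rest on libraries 1 and 2 being labelled rightly. The cause of the difference was not tested.

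The highest receptor values fell mostly in RNAi-Ctrl 1, and the lowest were more spread over libraries. Relative to its own mean over the 6 libraries, the average receptor deviated by -0.02, -0.07 and 0.02 log2 units in RNAi-GLAD 1, 2 and 3, against 0.12, 0.05 and -0.10 in RNAi-Ctrl 1, 2 and 3. RNAi-Ctrl 1 held the highest value of 6 of the 9 receptors (Dop1R1, Dop2R, DopEcR, 5-HT2A, 5-HT7 and Oamb), and of 16.7% of all genes tested. RNAi-Ctrl 3 held the lowest value of 4 (Dop1R1, DopEcR, 5-HT1A and Oamb), and of 17.5% of all genes. The other 3 receptors had their highest values elsewhere, 5-HT1A in RNAi-GLAD 1, 5-HT1B in RNAi-Ctrl 2 and 5-HT2B in RNAi-GLAD 3. The remaining lowest values were in RNAi-GLAD 1 (5-HT2A and 5-HT2B), RNAi-GLAD 2 (Dop2R and 5-HT7) and RNAi-GLAD 3 (5-HT1B).

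**Figure D3:**
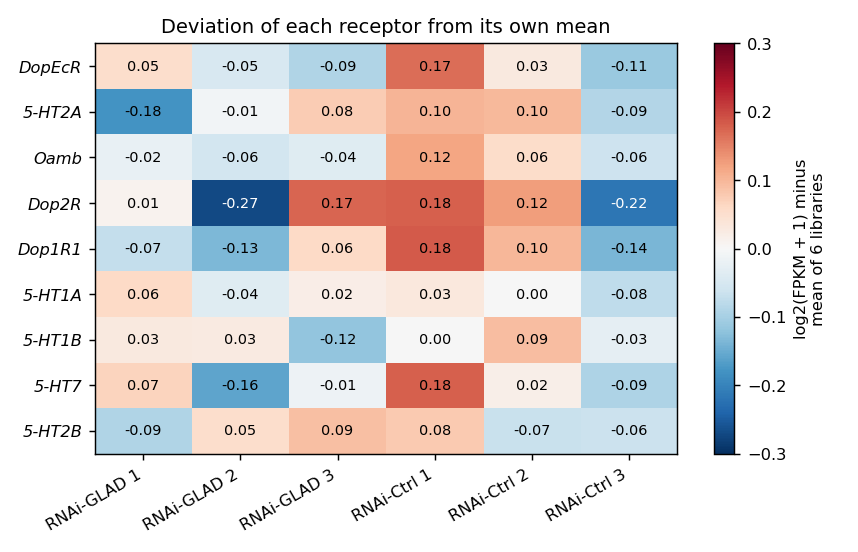
Deviation of each receptor in each library from its own mean over the 6 libraries, in log2(FPKM + 1), blue below and red above the mean. RNAi-Ctrl 1 holds the highest value of 6 receptors and RNAi-Ctrl 3 the lowest of 4; the darkest cells are those of Dop2R in RNAi-GLAD 2 (-0.27) and RNAi-Ctrl 3 (-0.22).

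Markers of neurons and of glia were likewise highest in RNAi-Ctrl 1 and lowest in RNAi-Ctrl 3 on average. The mean level of the 15 pan-neuronal markers was 6.52, 6.53 and 6.56 log2 units in RNAi-GLAD 1, 2 and 3, against 6.66, 6.61 and 6.48 in RNAi-Ctrl 1, 2 and 3. Their summed level was 2026 to 2085 FPKM in RNAi-GLAD and 1993 to 2239 FPKM in RNAi-Ctrl. Among these markers 14 of 15 had negative fold changes in the 4 libraries (median -0.11), with 0 called. Shares over all genes tested in these libraries were 45.3% negative and 5.45% called. The 11 glial markers summed to 1319 to 1399 FPKM in RNAi-GLAD and 1300 to 1465 FPKM in RNAi-Ctrl, and 10 of 11 were negative in the 4 libraries (median -0.12), with nkt called lower (-0.31 ± 0.04, adjusted p = 0.0397; 0.0956 to 0.242 with any 1 library left out, at fold changes of -0.31 to -0.30). Measured relative to the pan-neuronal mean of each library, which raises the median of all genes in the 4 libraries by 0.11, Dop1R1 was at -0.13 ± 0.06, Dop2R at -0.17 ± 0.11, 5-HT2A at -0.08 ± 0.07 and Oamb at -0.02 ± 0.05. On that scale 5 of the 9 receptors were negative, and DopEcR (0.01), 5-HT1A (0.11), 5-HT1B (0.09) and 5-HT2B (0.08) were positive, with 0 called. In tissue of this kind, fewer cells of a type and less RNA per cell cannot be told apart.

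**Figure D4:**
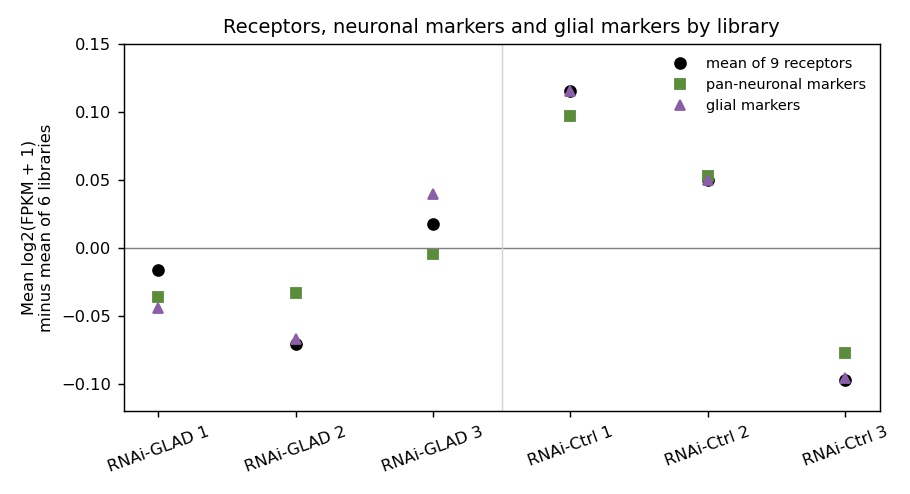
Mean log2(FPKM + 1) of the 9 receptors, of 15 pan-neuronal markers and of 11 glial markers in each library, each minus its mean over the 6 libraries. All 3 are highest in RNAi-Ctrl 1 (0.12 for the receptors, 0.10 for the neuronal and 0.12 for the glial markers) and lowest in RNAi-Ctrl 3 (-0.10, -0.08 and -0.10).

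Other tissues varied in their own ways. The testis marker list, of 11 genes found in the table, summed to 84.3, 1.36 and 8.50 FPKM in RNAi-GLAD 1, 2 and 3, against 8.27, 42.6 and 59.9 FPKM in RNAi-Ctrl 1, 2 and 3, and 7 of its members were at 0 in at least 1 library. The fat body markers (10 genes) summed to 3698 to 4228 FPKM in RNAi-GLAD and 3398 to 4958 FPKM in RNAi-Ctrl, with Fbp1 near 0 throughout. RNAi-Ctrl 1, which held the highest value of 6 receptors, stood apart in the yolk protein genes of this list: Yp1 was at 1.42, 0.735 and 2.28 FPKM in RNAi-GLAD 1, 2 and 3, against 296, 3.28 and 1.75 FPKM in RNAi-Ctrl 1, 2 and 3. Yp2 reached 98.6 FPKM in RNAi-Ctrl 1 and was at 0.371 to 2.25 FPKM in the other 5 libraries, and Yp3 reached 343 FPKM in RNAi-Ctrl 1 and was at 53.5 to 61.2 FPKM in the others. The 8 muscle markers summed to 978 to 1259 FPKM in RNAi-GLAD and 981 to 1225 FPKM in RNAi-Ctrl. Called in the 4 libraries were fit (2.25 ± 0.18, adjusted p = 0.0186) and Apoltp (0.80 ± 0.07, adjusted p = 0.0213), higher, of the fat body list and topi (-1.71 ± 0.16, adjusted p = 0.0225), lower, of the testis list. These 3 calls were lost without RNAi-Ctrl 1 (adjusted p = 0.172 for fit, 0.188 for Apoltp and 0.220 for topi) and without RNAi-Ctrl 2 (0.154, 0.178 and 0.212), where the fold changes were 2.25 for fit, 0.80 to 0.81 for Apoltp and -1.73 to -1.69 for topi. They held without RNAi-GLAD 1 (adjusted p = 0.0035 for fit, 0.0131 for Apoltp and 0.0181 for topi) and without RNAi-GLAD 2 (0.0121, 0.0429 and 0.0453). The muscle and photoreceptor lists had 0 calls, and over all genes tested in the 4 libraries 5.45% were called. In the testis list topi was the only negative member of 9 tested there, and the other 8 were positive (median of the list 0.22). The part of any of these markers, of the neuronal and of the glial ones in the receptor values was not tested.

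The genes whose course over the 6 libraries was nearest to the mean receptor course, among 7539 genes with a mean of at least 5 FPKM, were CG2993, dlg1, a scaffold protein of synapses and septate junctions, and the gene with identifier FBgn0263097, which the name table does not hold. Likeness was measured as the Euclidean distance between log2(FPKM + 1) profiles centred on their means, and these distances were 0.027, 0.037 and 0.038. dlg1 was at 80.1, 78.6 and 81.5 FPKM in RNAi-GLAD 1, 2 and 3, against 86.4, 84.2 and 75.9 FPKM in RNAi-Ctrl 1, 2 and 3. RNAi-Ctrl 1 was highest and RNAi-Ctrl 3 lowest, a course that the choice by likeness fixes.

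The other octopamine and tyramine receptors also gave no call. Among these 7 genes Octbeta1R was most abundant at 21.1 FPKM on average, followed by Octbeta2R (17.6) and Octbeta3R (13.1), receptors that raise cyclic AMP, and TyrRII, a tyramine receptor, was lowest (1.49). Octalpha2R was at 6.77, 6.82 and 7.35 FPKM in RNAi-GLAD 1, 2 and 3, against 8.01, 7.72 and 6.67 FPKM in RNAi-Ctrl 1, 2 and 3. RNAi-Ctrl 3 was again the lowest of the 6. All 7 had negative fold changes in the 4 libraries (median -0.14), with 0 called and Octalpha2R at -0.19 ± 0.06 (adjusted p = 0.156). As labelled 6 of 7 were negative (median -0.07), with 0 called.

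Genes that make and carry the amines went in both directions. Of 15 found in the table, 9 had positive and 6 negative fold changes both as labelled (median 0.01) and in the 4 libraries (median 0.06), with 0 called in either. The tyrosine hydroxylase gene ple, which starts dopamine synthesis, was at 38.0, 30.3 and 23.1 FPKM in RNAi-GLAD 1, 2 and 3, against 30.7, 24.6 and 25.9 FPKM in RNAi-Ctrl 1, 2 and 3. RNAi-GLAD 1 stood above the rest, and the fold change in the 4 libraries was 0.30 ± 0.16 (adjusted p = 0.340). Ddc, the decarboxylase of dopamine and serotonin synthesis, was at 110, 101 and 79.5 FPKM in RNAi-GLAD 1, 2 and 3, against 91.2, 89.3 and 93.5 FPKM in RNAi-Ctrl 1, 2 and 3. Its values in RNAi-GLAD 1 and 2 exceeded the others, with a fold change of 0.22 ± 0.06 in the 4 libraries (adjusted p = 0.120). Tdc1, a tyrosine decarboxylase, was at 8.30, 8.01 and 4.26 FPKM in RNAi-GLAD 1, 2 and 3, against 5.90, 5.22 and 6.71 FPKM in RNAi-Ctrl 1, 2 and 3. Its fold change of 0.48 ± 0.08 in the 4 libraries had the smallest p of the list and missed the threshold (adjusted p = 0.0544), and RNAi-GLAD 3 was its lowest library. As labelled the smallest p-values of this list belonged to Pu (0.05 ± 0.06), SerT (-0.07 ± 0.09), ple (0.14 ± 0.19) and b (-0.22 ± 0.29).

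Transporters for the amines lay at levels within the range of the receptors. The vesicular transporter Vmat averaged 46.6 FPKM, the serotonin transporter SerT 10.2 FPKM and the dopamine transporter DAT 5.01 FPKM. SerT was at 10.4, 9.52 and 9.86 FPKM in RNAi-GLAD 1, 2 and 3, against 11.9, 10.3 and 9.45 FPKM in RNAi-Ctrl 1, 2 and 3, again highest in RNAi-Ctrl 1 and lowest in RNAi-Ctrl 3.

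Among genes downstream of the receptors 1 was called in the 4 libraries, where 5.45% of all genes tested were called. Of 25 signalling genes tested, 21 had negative fold changes there (median -0.07), beside 45.3% of all genes, with 1 called lower and 0 higher. This gene was Ac3, which encodes an adenylyl cyclase, at 37.2, 38.0 and 45.8 FPKM in RNAi-GLAD 1, 2 and 3, against 53.6, 49.7 and 37.0 FPKM in RNAi-Ctrl 1, 2 and 3. The libraries fell into a high set (both RNAi-Ctrl libraries numbered 1 and 2, with RNAi-GLAD 3) and a low set (both RNAi-GLAD libraries of these numbers, with RNAi-Ctrl 3), and its fold change in the 4 libraries was -0.45 ± 0.06 (adjusted p = 0.0350). The call was lost with any 1 of the 4 libraries left out (adjusted p = 0.0741 to 0.209), with fold changes of -0.50 to -0.39. Galphao, the alpha subunit of an inhibitory-type G protein, had a fold change of -0.25 ± 0.04 (adjusted p = 0.0600), CaMKII, a calcium-dependent kinase, one of -0.17 ± 0.05 (adjusted p = 0.133), and loco, a regulator of G protein signalling, one of 0.22 ± 0.06 (adjusted p = 0.114). As labelled 18 of the 25 were negative (median -0.02), with 0 called and the smallest p for CaMKII (-0.14 ± 0.06), Gprk1 (-0.14 ± 0.06), Galphao (-0.15 ± 0.09) and Galphai (-0.07 ± 0.05).

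Genes that mark or act in the mushroom body, where several of these receptors act, showed 0 calls in either comparison. Of 11 such genes 7 were negative in the 4 libraries (median -0.03), led by toy (-0.12 ± 0.04), mub (-0.11 ± 0.05) and Fas2 (-0.10 ± 0.05), and sNPF was positive (0.11 ± 0.05). As labelled 7 of 11 were negative too, with a median of -0.003, and the smallest p-values belonged to toy (-0.06 ± 0.06), mub (-0.07 ± 0.07), Fas2 (-0.04 ± 0.06) and dac (0.02 ± 0.05).

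Set beside other receptor classes, the 9 receptors were of middling abundance. Their median mean level was 10.9 FPKM, against 7.22 FPKM for 7 other octopamine and tyramine receptors, 4.20 FPKM for 31 muscarinic and peptide receptors, 21.7 FPKM for 9 nicotinic acetylcholine receptor subunits and 14.7 FPKM for 16 glutamate and GABA receptor genes. The lowest levels were 3.96 FPKM among the 9 and 0.162 FPKM among the muscarinic and peptide receptors. DopEcR, at 84.5 FPKM, lay above every muscarinic or peptide receptor on the list (highest 36.6 FPKM), and below the nicotinic subunit nAChRbeta1 (200.2 FPKM). These levels are a description, with no test of the classes.

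**Figure D5:**
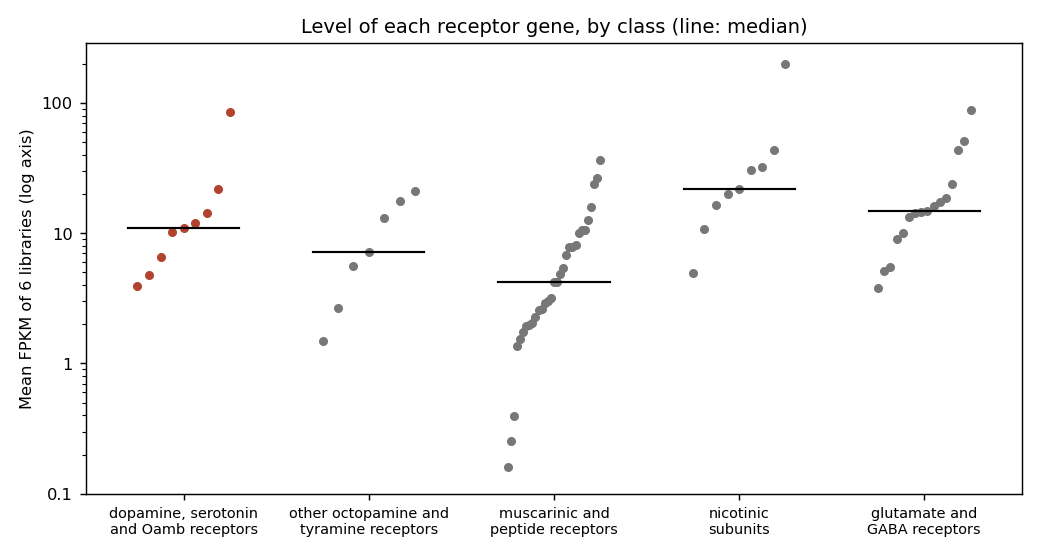
Mean FPKM over the 6 libraries of each gene in 5 receptor classes, on a log axis, with a line at the median of the class. The 9 receptors (left, median 10.9 FPKM) run from 3.96 to 84.5 FPKM, and the muscarinic and peptide receptors reach down to 0.162 FPKM.

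Of these other classes, 1 nicotinic subunit was called in the 4 libraries. Over all genes tested there, 5.45% were called and 45.3% had negative fold changes. Negative fold changes in the 4 libraries were found for 8 of 9 nicotinic subunits (median -0.05), 14 of 16 glutamate and GABA receptors (median -0.12) and 19 of 28 muscarinic and peptide receptors tested (median -0.08). The only call was nAChRbeta3, higher at 0.39 ± 0.04 (adjusted p = 0.0268): it was at 46.8, 47.1 and 42.3 FPKM in RNAi-GLAD 1, 2 and 3, against 35.8, 35.3 and 54.3 FPKM in RNAi-Ctrl 1, 2 and 3. RNAi-Ctrl 3 was its highest library, and the call was lost with any 1 of the 4 libraries left out (adjusted p = 0.0643 to 0.209), with fold changes of 0.38 to 0.40. Not past the threshold, with the smallest p-values of their lists, stood GluClalpha (-0.28 ± 0.07), Lcch3 (-0.20 ± 0.05), Ekar (-0.30 ± 0.11), Nmdar2 (-0.23 ± 0.09), Proc-R (0.31 ± 0.05), Pdfr (-0.25 ± 0.05), SPR (0.20 ± 0.05) and TkR99D (-0.30 ± 0.10). As labelled 0 genes of these 3 classes were called, with 6 of 9 (median -0.03), 14 of 16 (median -0.04) and 16 of 28 (median -0.02) negative, and the largest fold change was that of PK1-R (0.28 ± 0.12).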

How the data were processed

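The authors deposited 1 table of FPKM values (fragment counts scaled by gene length and sequencing depth), a column per library. Per the labels' protocols, paired-end libraries (150 bp reads) were made with a NEBNext Ultra kit; the submitters' processing notes name TopHat, BDGP6 and dm6 with no version. The sources used here do not give the counting tool, its strand setting or the gene lengths.

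Identifiers were matched to symbols for 15002 of 15682 FlyBase rows. Values were tested as log2(FPKM + 1) with limma 3.58.1 in R 4.3.3 (eBayes with a mean-variance trend, genes with a mean of at least 1 FPKM, Benjamini-Hochberg over all genes tested, two-sided, threshold 0.05). A log2(FPKM + 1) fold change understates changes of low genes. Library totals came from the steps of low values: only 37.4% to 48.1% of values of at most 200 reads came out whole (tolerance 0.02 reads), so no count test was run. The fits were checked on simulated data. Neighbouring receptor levels were compared by sign-flip permutation. Figures used Python 3.11.15 with matplotlib 3.10.9.

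The receptors, the lists, the 4-library comparison and the tests were chosen with earlier results of these data known. Named from each list were the 4 members with the smallest p in each fit, or in the text fewer of them, and every member called; lncRNA:CR40469, ninaE, Fbp1, CG43351, TyrRII, Vmat and DAT were named after their values were seen. Samples were treated as not paired. Sequences were not used here.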

Additional observations from a re-analysis of the deposited data

How the results depend on the processing

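No receptor was called under any alternative (smallest adjusted p = 0.0625, for Dop1R1 in the 4 libraries after quantile normalization), including each library left out (0 to 0 called). As labelled, the genes called were 2 with no filter on low values, against 0 in the comparison as reported, and 527 without both libraries numbered 3, with 2 called in the 7 lists of receptors, synthesis, signalling and mushroom body genes (markers left out); leaving out 1 library gave 0 to 0 for both. In the 4 libraries the 527 genes became 102 with no filter, 1214 relative to the pan-neuronal markers, 165 without the trend, 17 at a threshold of 0.01, and 1 to 329 with 1 library left out. The 2 called in these 7 lists (Ac3 and nAChRbeta3) numbered 1 with no filter, 4 with a mean of at least 5 FPKM, 7 relative to the pan-neuronal markers, 0 without the trend, 0 at 0.01 and 0 to 0 with 1 library left out. With the replicate block there were 0 genes as labelled, and 512 genes and 1 list member in the 4 libraries. Once the mean of each group was subtracted, same-numbered libraries correlated at -0.354, -0.404 and -0.460. They cannot decide on pairing, because the libraries numbered 3 stood with the other group for many genes, which alone tends to make such values negative. The numbers were not taken as pairs. By an exact sign-flip test within libraries, whose pairs were chosen from the same means, 6 of 8 neighbouring pairs of receptor levels passed, and 0 without both libraries numbered 3 and 0 to 0 with 1 left out, where the exact test cannot pass (smallest p 0.125 and 0.0625); the same 6 pairs kept 1 order in every library.

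Uncalled fold changes near 0 turned sign in 14 of 178 values as labelled: 5-HT2B (-0.00424 with quantile normalization, -0.00653 without both numbered 2, -0.0247 without both numbered 3), 5-HT1B (0.00557 relative to the pan-neuronal markers), 5-HT2A (0.0287 without both numbered 1), Dop2R (0.111 without both numbered 2) and 5-HT1A (-0.0039 without both numbered 3). With 1 library left out the ranges were -0.18 to 0.0634 for Dop2R, -0.127 to 0.0114 for DopEcR, -0.134 to 0.00123 for 5-HT7, -0.0682 to 0.00561 for 5-HT1B, -0.00123 to 0.0544 for 5-HT1A and -0.00121 to 0.089 for 5-HT2B, with no turn for Dop1R1 (-0.19 to -0.03), 5-HT2A (-0.14 to -0.003) and Oamb (-0.12 to -0.03). Array weights gave -0.21 for Dop2R, -0.18 for Dop1R1 and -0.15 for 5-HT2A. In the 4 libraries 9 of 124 turned: DopEcR (0.0133), 5-HT1A (0.105), 5-HT1B (0.0904) and 5-HT2B (0.0847) relative to the pan-neuronal markers, and with 1 library left out 5-HT1A (-0.0514 to 0.0436), 5-HT1B (-0.0661 to 0.0282) and 5-HT2B (-0.0969 to 0.0476); the others ranged over -0.42 to -0.14 (Dop2R), -0.29 to -0.20 (Dop1R1), -0.28 to -0.11 (5-HT2A), -0.26 to -0.03 (5-HT7), -0.16 to -0.03 (DopEcR) and -0.16 to -0.09 (Oamb). The cause was not tested. The filter of 5 FPKM removes 5-HT7 and 5-HT2B.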
